A study of Mus musculus with 9 samples.

Results

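The nuclear oxidative phosphorylation (OXPHOS) genes encode the subunits of the respiratory chain and of ATP synthase that are made in the cytosol and imported into mitochondria. They were taken by symbol and position: protein-coding genes outside the mitochondrial genome whose symbols begin with Ndufa, Ndufb, Ndufc, Ndufs or Ndufv and a digit, are Sdha, Sdhb, Sdhc or Sdhd, begin with Uqcr, begin with Cox, a digit from 4 to 8 and the letter a, b or c, or begin with Atp5. The rule gave 81 genes of the 32661 in the tables after spike-ins and mitochondrial genes were left out: 37 of complex I, 4 of complex II, 8 of complex III, 15 of complex IV and 17 of complex V. Another 5 genes not annotated as protein-coding matched the symbols and were left out by the rule. The 81 genes have 80 symbols, because Atp5o is listed under 2 identifiers whose gene models overlap on the same strand, so the split of its counts between them is uncertain.

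Complexes I and II pass electrons from NADH and succinate to ubiquinone, complex III passes them on to cytochrome c, and complex IV hands them to oxygen. Complexes I, III and IV pump protons out of the matrix, and complex V, the ATP synthase, lets them back in to make ATP. Neurons draw most of their ATP from this pathway, and its core proteins come from both genomes, since mitochondrial DNA encodes several of the membrane subunits.

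Single cells were sorted from the ventral midbrain of VGAT:Ai14:PITX3-GFP mice, in which Cre from the VGAT (Slc32a1) locus switches on tdTomato in any cell that has ever used it, and GFP marks Pitx3-expressing cells of the dopamine system. All cells carried these alleles, and no group was wild type or treated. There were 9 plates: 4 with VGAT cells at embryonic day 16 (E16), 3 with VGAT cells at the day of birth (P0), and 1 plate each of VGAT+PITX3 cells at E16 and at P0. One tdTomato-positive cell went into each well, and the VGAT+PITX3 plates held cells that were also GFP-positive. Messenger RNA was counted from its 3′ end with molecular barcodes, so a level in CPM (counts scaled to a common library size) is a tally of molecules and was not divided by transcript length. The plate was the replicate, the labels do not tie plates to animals, and p-values measure the spread between plates only.

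Of 3455 wells, 2035 were kept, which excluded wells under 2000 genes, over 50000 counts or with 15% or more of counts from mitochondrial genes. In the study's methods that upper bound is a number of genes, and here it was set on counts. It removed 16 wells of VGAT P0 replicate 1 and 4 of VGAT P0 replicate 3. It also removed 6, 7, 1 and 2 wells of VGAT E16 replicates 1 to 4, and 1 of the VGAT+PITX3 plate at E16. The study's limits on ribosomal, spike-in and exonic reads were not applied. The kept wells of a plate gave between 1435919 and 5408710 counts in all, of which 14990 to 55481 fell on the 81 genes. VGAT P0 replicate 1 had the fewest wells, 44, with a median of 33272 counts per well, while VGAT P0 replicate 2 had 219 wells with a median of 7043. The headers carry a plate name that fits the labels and another code that does not always do so: for VGAT E16 replicates 3 and 4 the code reads P0, and for VGAT P0 replicates 1 and 3 it reads E16. The labels were followed. The number of members called, their median and the 6 genes that rose are also given without these 4 plates. So are the members followed whose stage value changed sign there. Without them VGAT P0 replicate 2 is the only VGAT plate at P0. The other stage results, shares and lists among them, are not given without these 4 plates. Pitx3 was at 78.0 and 147 CPM on the VGAT+PITX3 plates and at most 0.38 CPM on the VGAT plates. The GABA transporter gene Slc32a1 was at 158 to 325 CPM on every plate, whereas Gad1, a GABA-synthesis enzyme, was at 954 to 1210 CPM on VGAT plates at E16, 796 to 1185 at P0 and 10.3 and 14.5 CPM on the VGAT+PITX3 plates. Gad2, the other GABA-synthesis enzyme, went the other way, at 936 and 1045 CPM on the VGAT+PITX3 plates and 493 to 650 CPM on the VGAT plates. Summed over 6 astrocyte and radial glia markers, VGAT P0 replicate 2 stood at 461 CPM, against 80.6 to 121 on the other VGAT plates and 202 and 229 on the VGAT+PITX3 plates. Summed over 5 microglia markers, VGAT E16 replicate 2 and VGAT P0 replicate 2 stood at 29.0 and 27.2 CPM, and no other plate exceeded 6.47. In sums over a plate, fewer cells of a type and less RNA per cell cannot be told apart.

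The share of a plate's counts that came from the 81 genes was near 1%. On the VGAT E16 plates it was 1.02%, 0.971%, 1.03% and 1.02% for replicates 1 to 4, and on the VGAT P0 plates 1.04%, 1.29% and 1.27% for replicates 1 to 3. The VGAT+PITX3 plates gave 0.937% at E16 and 0.978% at P0. All 3 VGAT P0 plates were above all 4 VGAT E16 plates, but P0 replicate 1 by a small margin that spliced counts did not keep (1.33%, inside the E16 range of 1.23% to 1.39%), and both VGAT+PITX3 plates were close to or below the lowest VGAT plates. Mean shares were 1.01% ± 0.0251 (SD, n = 4) at E16 and 1.20% ± 0.134 (SD, n = 3) at P0.

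Every complex had a higher mean share at P0. Complex I went from 0.335% ± 0.00771 (SD, n = 4) to 0.399% ± 0.0493 (SD, n = 3), and complex II, the smallest, from 0.0381% ± 0.00212 to 0.0448% ± 0.00393. Complex III stood at 0.0886% ± 0.000945 and 0.106% ± 0.00864, complex IV at 0.187% ± 0.0183 and 0.227% ± 0.0430, and complex V at 0.359% ± 0.00769 and 0.422% ± 0.0407. The plates of the 2 stages did not overlap for complexes I, II, III and V, while for complex IV the P0 replicate 1 plate, at 0.180%, lay inside the E16 range of 0.162% to 0.205%. These shares are descriptions without a test.

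**Figure D1:**
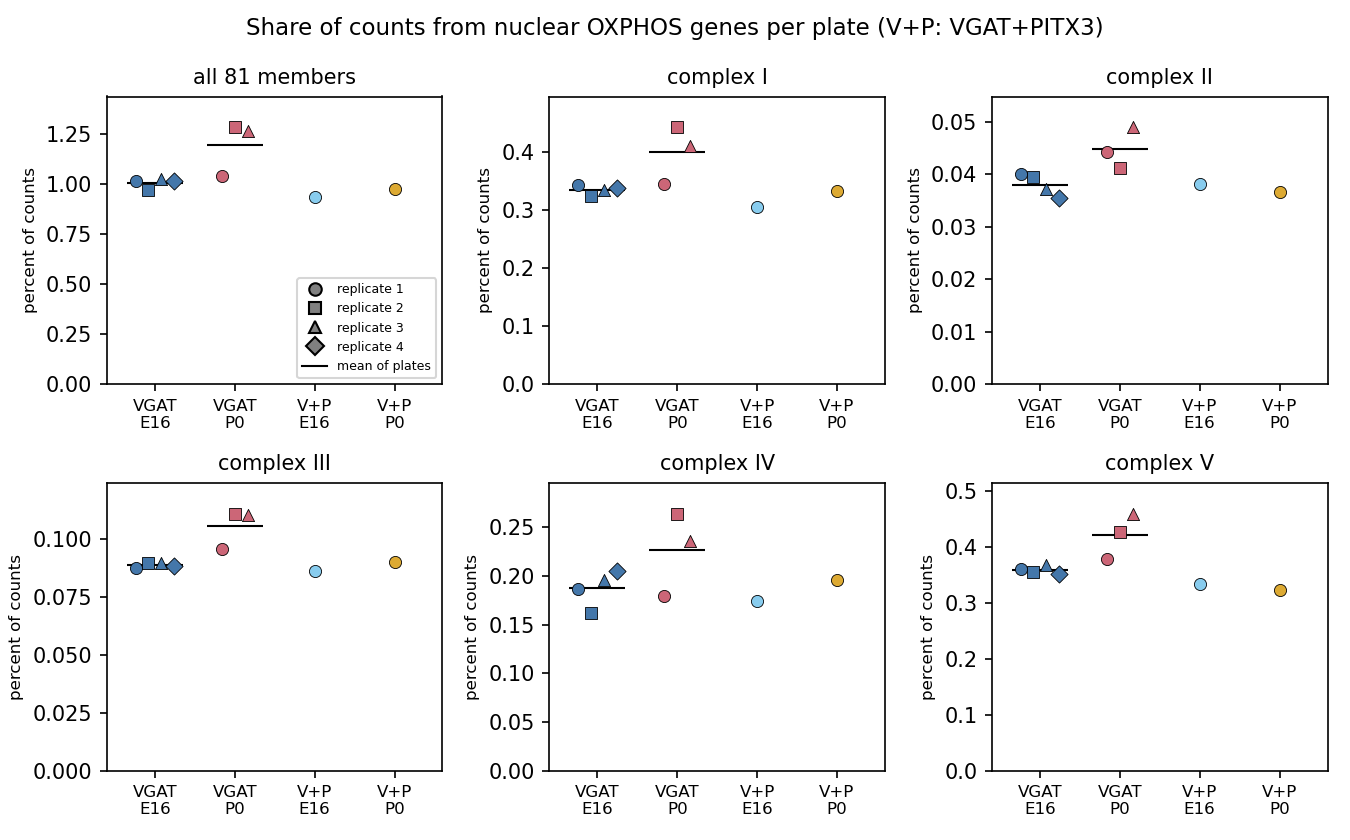
Percent of each plate's counts from all 81 nuclear OXPHOS genes and from each complex, on axes that start at 0; points are plates, shaped by replicate number, and lines are means of the VGAT groups. VGAT P0 replicates 2 and 3 lie above every other plate in the panel of all members, at 1.29% and 1.27%, and replicate 1, at 1.04%, lies near the E16 plates.

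Levels within the complexes spanned a wide range. The 76 members with enough counts to test had a median of 103.7 CPM over plates, against 25.5 CPM over all genes tested. Atp5b, the catalytic beta subunit of ATP synthase, was the highest of complex V, at 726 ± 91.3 CPM on the VGAT E16 plates (SD, n = 4), and Atp5g2 the lowest, at 2.82 ± 1.61 CPM. In complex I the highest was Ndufc2, an accessory subunit of the membrane arm, at 263 to 292 CPM on those plates, and the lowest was Ndufa4l2. The highest and lowest of complex II were Sdhc and Sdhd, its membrane anchors, at 119 ± 11.6 and 49.6 ± 3.94 CPM. In complex III they were Uqcrc2, a core protein, at 192 to 216 CPM, and Uqcr11, a small accessory subunit, at 25.1 to 37.1 CPM, and in complex IV Cox6a1, at 378 ± 28.7 CPM, and Cox8c. The 5 members left out by the count filter between stages were Ndufa4l2, Cox6a2, Cox7a1, Cox7b2 and Cox8c, none of them above 2.78 CPM on any plate. Reads of small subunits with near-identical copies in the genome can be lost or split in counting, so low levels such as those of Cox7c (24.5 to 46.1 CPM over the 9 plates) and Atp5l (8.94 to 14.1 CPM) are uncertain.

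The difference between stages was tested on the 7 VGAT plates, to see which of these genes differed between E16 and the day of birth. Of the 76 members tested, 6 rose at P0 and none fell (edgeR's quasi-likelihood test, Benjamini-Hochberg adjusted p under 0.05 over all 13639 genes tested). The 6 are Atp5g1, Cox6b2, Sdhd, Ndufs8, Atp5h and Ndufa11, and their rises ran from 1.34-fold to 3.74-fold. Among all genes tested 4.58% passed the threshold, 2.84% upwards and 1.74% downwards. Without the 4 plates whose codes and labels differ in stage, 23 members passed, all upwards, against 4.16% of all genes upwards, in a fit with 2 E16 plates and 1 P0 plate, replicate 2, which is assumed to vary like the others and has the highest astrocyte marker sum and mitochondrial mRNA share of the VGAT plates. Of the 6 genes, Atp5g1, Cox6b2, Sdhd and Atp5h passed there too, with log2 fold changes of 1.42, 1.87, 0.96 and 0.70, and Ndufs8 and Ndufa11 did not, at 0.62 and 0.58. With stage read from the codes in place of the labels, no member passed by edgeR and 1 gene passed among all 13639. An unadjusted p under 0.05 was then found for 7 members, 5 higher and 2 lower, against 6.26% of all genes. The log2 fold changes of Atp5g1, Sdhd, Atp5h and Ndufa11 were then 0.18, 0.0021, 0.075 and 0.068.

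Atp5g1 encodes subunit c of the membrane ring of ATP synthase (chromosome 11, 96068852 to 96075670, minus strand, GRCm38). It was at 62.8, 51.2, 67.1 and 67.6 CPM on the 4 VGAT E16 plates and at 99.6, 152 and 121 CPM on the 3 VGAT P0 plates. Every P0 plate was above every E16 plate. The rise was 1.01 ± 0.15 on the log2 scale (SE, 2.01-fold, edgeR adjusted p = 0.00887), and it stayed past the threshold with any single plate left out. The VGAT+PITX3 plates gave 66.0 CPM at E16 and 80.3 CPM at P0.

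Cox6b2 encodes the isoform of cytochrome c oxidase subunit 6B that is best known from testis (chromosome 7, 4751792 to 4753094, minus strand). Its levels were low throughout, at 3.94, 4.49, 2.28 and 4.16 CPM on the VGAT E16 plates and 16.1, 15.6 and 10.8 CPM on the VGAT P0 plates. The stages did not overlap, and the lowest P0 plate was above 2 times the highest E16 plate. The rise was 1.90 ± 0.31 (SE, log2, 3.74-fold, edgeR adjusted p = 0.0110), the largest among the members tested, and it too passed with any single plate left out. With stage read from the plate codes its log2 fold change turned negative, to -0.37, and it did not pass. On the VGAT+PITX3 plates it was at 2.04 CPM at E16 and 7.18 CPM at P0.

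Upstream of these 2 genes the RefSeq sequence (GRCm38.p6) is shown because they had the largest log2 fold changes of the members tested. Each line gives the 250 bases before the annotated start, on the gene's own strand, and capitals mark the SP1 letters GGGGCGGGG where present.
Atp5g1, chr11:96075632-96075881, minus strand: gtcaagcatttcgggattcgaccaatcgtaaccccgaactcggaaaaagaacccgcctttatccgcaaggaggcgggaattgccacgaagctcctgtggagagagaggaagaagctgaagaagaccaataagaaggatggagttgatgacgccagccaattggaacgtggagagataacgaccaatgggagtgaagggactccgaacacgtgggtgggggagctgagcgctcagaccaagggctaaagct
Cox6b2, chr7:4753095-4753344, minus strand: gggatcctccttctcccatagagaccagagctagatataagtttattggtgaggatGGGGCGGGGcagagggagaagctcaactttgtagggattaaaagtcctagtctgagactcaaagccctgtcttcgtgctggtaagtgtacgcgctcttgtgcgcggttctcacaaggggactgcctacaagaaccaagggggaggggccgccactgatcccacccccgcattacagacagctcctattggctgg

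Sdhd encodes a membrane anchor of succinate dehydrogenase, the enzyme shared by the chain and the citric acid cycle. It was at 51.7, 47.5, 45.3 and 53.9 CPM on the VGAT E16 plates and 66.6, 96.7 and 89.6 CPM on the VGAT P0 plates, without overlap. It rose by 0.79 ± 0.14 (SE, log2, 1.73-fold, edgeR adjusted p = 0.0137), and lost the call without E16 replicate 3 or without P0 replicate 3, while its log2 change stayed between 0.68 and 0.91. The other genes of the complex were nearer to no change: Sdhb, the iron-sulfur subunit, had a log2 fold change of 0.26 ± 0.11, Sdhc 0.14 ± 0.14 and Sdha, the flavoprotein, -0.10 ± 0.12 (adjusted p = 0.17, 0.57 and 0.65, edgeR).

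Ndufs8, an iron-sulfur subunit of complex I, was at 37.2, 33.1, 34.4 and 34.3 CPM on the VGAT E16 plates and 47.8, 53.9 and 48.5 CPM on the VGAT P0 plates. Its P0 plates were all higher, by 0.54 ± 0.13 on the log2 scale (SE, edgeR adjusted p = 0.0367). Atp5h, the d subunit of the peripheral stalk of ATP synthase, was at 73.7, 66.4, 77.2 and 81.5 CPM and then 112, 113 and 93.4 CPM. It was higher by 0.51 ± 0.12 (SE, log2, edgeR adjusted p = 0.0373). Ndufa11, an accessory subunit of the membrane arm of complex I, was at 87.95, 86.2, 91.8 and 98.0 CPM and then 114, 131 and 119 CPM, higher by 0.42 ± 0.11 (SE, log2, edgeR adjusted p = 0.0477). It overlaps Vmac on the opposite strand, and whether the counting used strand is not given in the sources used here, so reads of the pair cannot be told apart. None of these 3 calls was firm: Atp5h and Ndufa11 lost theirs with any single plate left out, and Ndufs8 without any plate other than P0 replicate 1. With 1 plate left out their log2 values ran from 0.47 to 0.57 for Ndufs8, 0.44 to 0.60 for Atp5h and 0.35 to 0.46 for Ndufa11. With stage read from the plate codes Ndufs8 turned to -0.043.

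**Figure D2:**
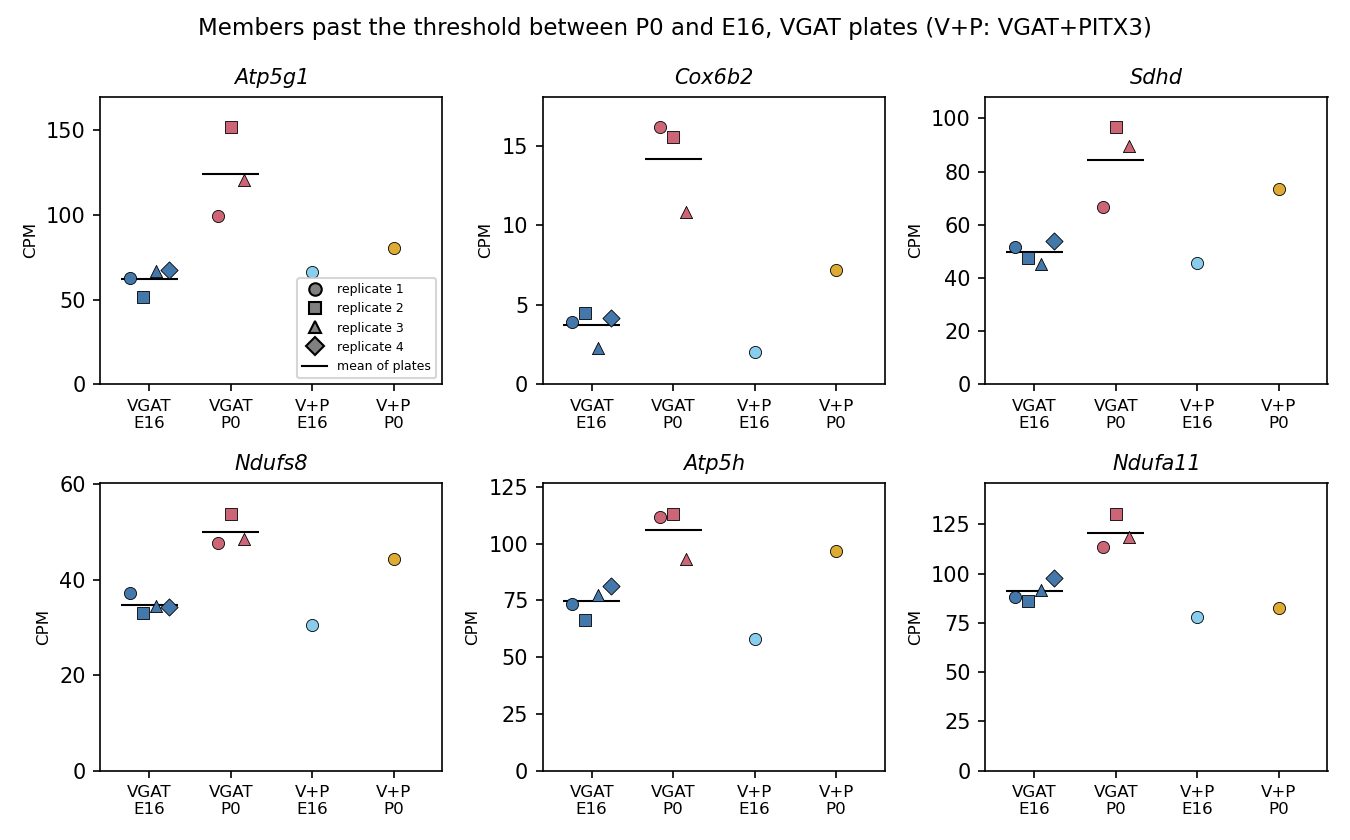
Levels in CPM, on axes that start at 0, of the 6 members past the threshold between stages, for all 9 plates; points are plates, shaped by replicate number, and lines are means of the VGAT groups. In each panel the 3 VGAT P0 plates lie above the 4 VGAT E16 plates, with the widest gap for Cox6b2 (2.28 to 4.49 against 10.8 to 16.1 CPM).

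The counts that follow are over all 76 members tested, the 6 genes above included. The log2 fold change was positive for 72 of them, against 51.7% of all genes tested, and its median was 0.32, against 0.02 over all genes. An unadjusted p under 0.05 was found for 29 members, all of them higher at P0, where 24.1% of all genes had one in either direction. Without P0 replicate 2 it was found for 18 members, against 2663 of 14212 genes. Without P0 replicate 1 it was found for 46, against 3664 of 14361 genes. The P0 plates were all above the E16 plates for 18 members, against 9.87% of all genes, and all below them for 0, against 10.6%. For 50 members P0 replicates 2 and 3 were both above every E16 plate, against 17.6% of all genes. These include the 18 with all P0 plates above, against 9.87% of all genes, and for the other 32 P0 replicate 1 was not above. The members with a negative value were Ndufs1, Ndufs4, Sdha and Atp5c1, none lower than -0.16. Leaving out P0 replicate 2, the VGAT plate with the highest astrocyte marker sum, lowered the median to 0.19 and the calls to 3, against 1.14% of all genes, and the part of those cells in the stage difference was not tested otherwise. Leaving out P0 replicate 1 raised the calls to 14, against 5.36% of all genes in that fit. The calls fell to 2 without P0 replicate 3 or E16 replicate 3, against 0.529% and 0.688% of all genes, and to 3 without E16 replicate 1 or 4, against 1.95% and 0.976%. Without E16 replicate 2 there were 4, or 5.26% of the members, against 6.24% of all genes.

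By complex, the median log2 fold change between stages was 0.33 for complex I (36 tested, 2 called), 0.20 for complex II (4 tested, 1 called), 0.32 for complex III (8 tested, 0 called), 0.34 for complex IV (11 tested, 1 called) and 0.29 for complex V (17 tested, 2 called). In complex III all 8 genes were positive, from 0.08 to 0.59, and none passed. The highest of them was Uqcr11 at 0.59 (edgeR adjusted p = 0.103).

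**Figure D3:**
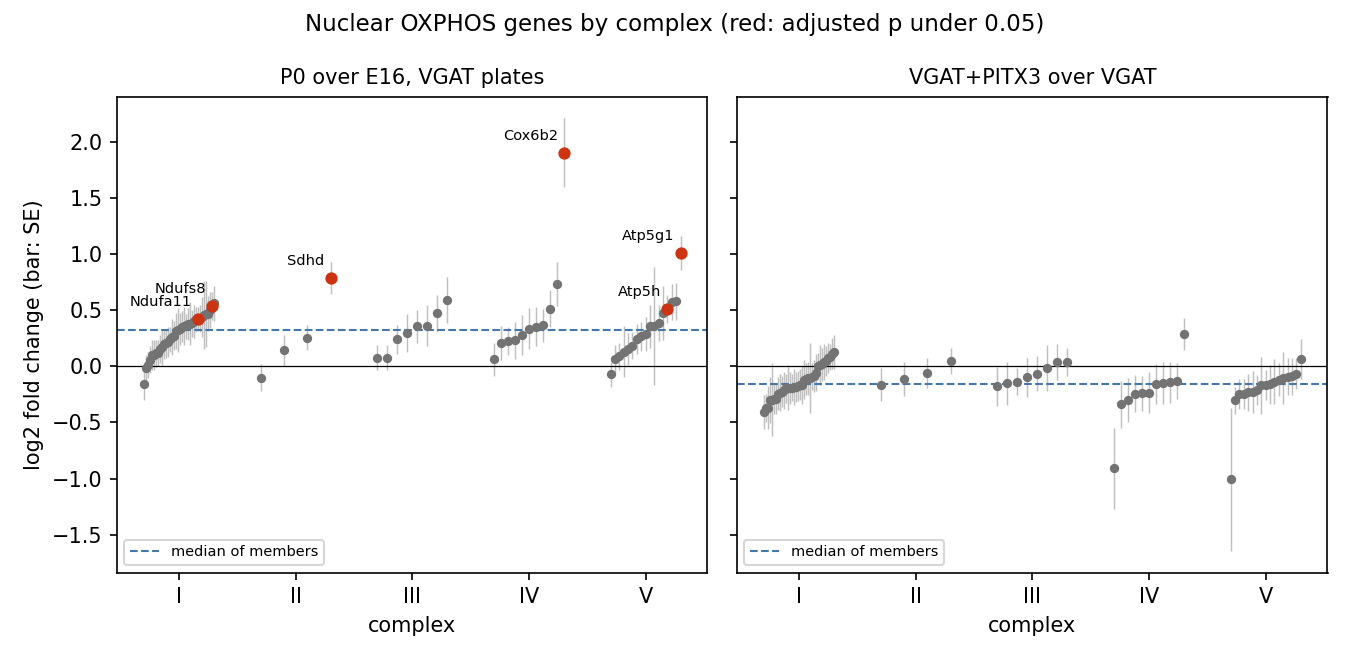
Log2 fold changes of the members tested, with standard errors, grouped by complex and sorted within it, between stages on the left and between sorts on the right; red points passed an adjusted p of 0.05 and the dashed line is the median of members. The median is 0.32 between stages and -0.16 between sorts, and no point of the right panel is red.

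A list of 17 subunits was set beside the rest: core subunits of complex I, all of complex II, Uqcrc1 and Uqcrfs1, Cox5a and Cox5b, and the alpha and beta subunits of ATP synthase. Their median log2 fold change between stages was 0.14, against 0.35 for the other 59 tested members. Of the 17, 2 rose, Sdhd and Ndufs8, as did 4 of the other 59, against 2.84% of all genes. In complex I, Ndufs1 had -0.16 ± 0.14 (SE), Ndufv1, which binds NADH, 0.12 ± 0.12 and Ndufv2 0.12 ± 0.12, whereas Ndufs3 had 0.44 ± 0.18 and Ndufs7 0.50 ± 0.16 (edgeR adjusted p = 0.153 and 0.0872). Uqcrc1 and Uqcrfs1, the Rieske protein, had 0.24 ± 0.13 and 0.08 ± 0.11. Cox5a had 0.06 ± 0.15, and Cox5b 0.73 ± 0.20 with an edgeR adjusted p of 0.0532. Cox5b was at 68.2, 47.3, 56.5 and 64.2 CPM on the E16 plates and 72.6, 137 and 83.2 CPM on the P0 plates, and it passed in DESeq2 (adjusted p = 0.0178, with a range of 0.000666 to 0.916 over all alternatives). Atp5a1 and Atp5b, the alpha and beta subunits, had 0.06 ± 0.12 and 0.15 ± 0.14. As a share of all member counts, the list was 30.2% ± 2.48 (SD, n = 4) at E16 and 28.6% ± 2.98 (SD, n = 3) at P0, and the stages overlapped.

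Several subunits come in paralogous pairs or trios. Composition was computed for 2 of these sets only, those that hold the called genes Atp5g1 and Cox6b2. In both, the 3 P0 plates did not overlap the 4 E16 plates. Atp5g1, Atp5g2 and Atp5g3 encode the same mature subunit c behind different import sequences. Atp5g3 was the main form, at 562, 575, 619 and 602 CPM on the VGAT E16 plates and 523, 656 and 687 CPM on the VGAT P0 plates, a log2 fold change of 0.09 ± 0.12 (SE, edgeR adjusted p = 0.692). Atp5g1 made up 10.0%, 8.15%, 9.77% and 10.0% of the counts of the trio on the E16 plates and 15.9%, 18.7% and 14.9% on the P0 plates, and 10.5% and 13.5% on the VGAT+PITX3 plates at E16 and P0. The stages did not overlap, with a mean difference of 6.99 percentage points, which carries the rise of Atp5g1 itself and was not tested apart from it. Cox6b2 made up 1.80%, 2.24%, 0.949% and 1.56% of Cox6b1 and Cox6b2 counts at E16 and 6.80%, 3.88% and 4.04% at P0, again without overlap, with a mean difference of 3.26 percentage points. That difference carries the rise of Cox6b2 itself and was not tested apart from it. Cox6b1, the widely expressed form, had a log2 fold change of 0.35 ± 0.17 (edgeR adjusted p = 0.236).

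In most of the other sets a single form held nearly all counts, but Cox7a2 and Cox7a2l were both well detected. Cox6a1, the form of non-muscle tissue, was at 338 to 536 CPM over the 9 plates and Cox6a2, the form of heart and muscle, at 0 to 0.584 CPM. Cox7a2 was at 77.8 to 172 CPM, Cox7a2l, which takes part in supercomplexes, at 37.8 to 74.99 CPM, and the muscle form Cox7a1 at 0.673 to 2.22 CPM. Cox8a was at 264 to 426 CPM and Cox8c, known from testis, at 0 to 0.246 CPM. Ndufa4 was at 143 to 273 CPM and its paralog Ndufa4l2 at 0 to 2.78 CPM, the highest on VGAT P0 replicate 2. Cox4i1, which the symbol rule does not take, was at 203 to 296 CPM with a log2 fold change of 0.30 ± 0.12 between stages (edgeR adjusted p = 0.154), and Cox4i2 was at 0 on 8 plates and at 0.449 CPM on the other.

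**Figure D4:**
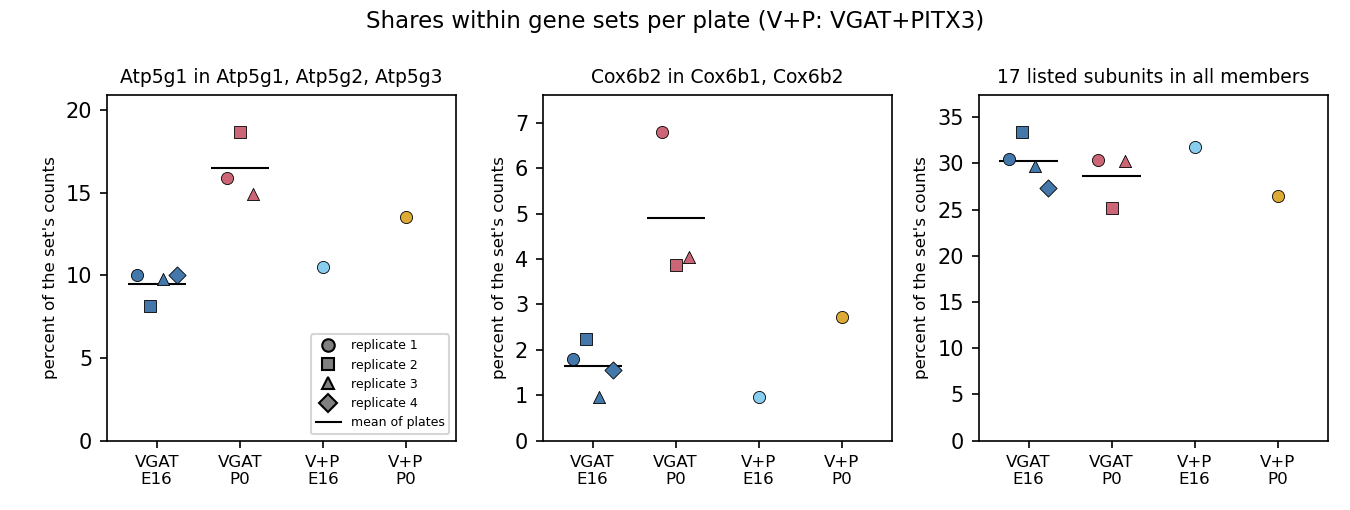
Percent of counts from Atp5g1 among the 3 subunit c genes, from Cox6b2 among the 2 Cox6b genes and from 17 listed subunits among all members, on axes that start at 0; points are plates, shaped by replicate number, and lines are means of the VGAT groups. Atp5g1 lies at 8.15% to 10.0% on the VGAT E16 plates and 14.9% to 18.7% on the VGAT P0 plates, while the share of the listed subunits overlaps between stages.

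The comparison between sorts used all 9 plates with stage as a covariate and asked whether cells with both reporters differed from VGAT cells. None of the 76 members tested passed the threshold, where 8.93% of all 14624 genes tested did, 4.73% upwards and 4.2% downwards (edgeR). DESeq2 called none either, and 5 members had an unadjusted p under 0.05 in edgeR, all lower in VGAT+PITX3 cells, against 18.1% of all genes in either direction. Without VGAT P0 replicate 2 there were 7 such members, 1 of them higher, against 2849 of 14516 genes. Without VGAT P0 replicate 3 there were 6, 1 of them higher, against 2633 of 14605 genes. The log2 fold change was negative for 63 of 76 members, against 50.1% of all genes, with a median of -0.16, against -0.00068 over all genes. With the VGAT+PITX3 plate at E16 left out the median was -0.19, and 13 of 77 members were positive, against 46.9% of all genes. With the one at P0 left out it was -0.13, and 24 of 77 were positive, against 48.9%. Both VGAT+PITX3 plates were below all 7 VGAT plates for 3 members, against 6.56% of all genes, and above them for 0, against 7.86%.

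The 3 were Ndufa4, Ndufa11 and Atp5c1. Ndufa4, a small subunit first placed in complex I and now known to bind complex IV, was at 143 and 167 CPM on the VGAT+PITX3 plates at E16 and P0 and at 172 to 273 CPM on the VGAT plates, with a log2 fold change of -0.41 ± 0.15 (SE, edgeR adjusted p = 0.136). It passed the threshold without the 4 plates with differing codes (edgeR adjusted p = 0.0351, with a range of 0.0351 to 0.521 over all alternatives) and without VGAT P0 replicate 1. It was the 1 member to pass in each of these fits, or 1.32% of those tested, against 9.09% and 8.64% of all genes. Ndufa11 was at 78.0 and 82.5 CPM against 86.2 to 131 CPM, a log2 fold change of -0.37 ± 0.13 (edgeR adjusted p = 0.100). Atp5c1, the gamma subunit that turns inside the ATP synthase head, was at 255 and 206 CPM against 261 to 306 CPM, a log2 fold change of -0.30 ± 0.12 (edgeR adjusted p = 0.177). The gaps were narrow for each.

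The other members with an unadjusted p under 0.05 were Cox6b2, at -0.91 ± 0.36 (edgeR adjusted p = 0.177), and Ndufa9, an accessory subunit near the ubiquinone site, at -0.29 ± 0.14 (edgeR adjusted p = 0.274). Both overlapped between sorts. The largest positive value was that of Cox6a1, at 536 and 449 CPM on the VGAT+PITX3 plates and 338 to 477 CPM on the VGAT plates, a log2 fold change of 0.29 ± 0.14 (edgeR adjusted p = 0.314).

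Whether the stage difference was the same in both sorts was asked by the interaction term, for which each VGAT+PITX3 group is a single plate. No member of 77 tested passed, and 0.0% of the 15724 genes tested did (edgeR). At an unadjusted p under 0.05 there were 3 members, against 6.35% of all genes, and DESeq2 called 14 genes in all and no member. The 5 members with the smallest p were Ndufb10, Uqcrc1, Atp5g1, Ndufv1 and Ndufv2, with interaction values from -0.80 to -0.48 on the log2 scale. The single VGAT+PITX3 plates were lower at P0 for Ndufb10, Uqcrc1, Ndufv1 and Ndufv2, and higher at P0 for Atp5g1 by a smaller difference than in the VGAT plates. For Ndufb10 the VGAT+PITX3 plates gave 80.5 CPM at E16 and 61.4 CPM at P0, while the VGAT plates gave 72.4 to 73.2 CPM at E16 and 85.0 to 106 CPM at P0 (edgeR adjusted p = 0.773). On simulated counts with log2 changes of 1, this term called 8% of the changed genes, so it had little power at that size.

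Neighbouring pathways were read from lists of known genes, chosen with earlier results of these data known. Of 16 glycolysis genes tested, 10 rose at P0 and 0 fell, against 2.84% and 1.74% of all genes, with a median log2 fold change of 0.73. Among them were Eno1, an enolase, at 1.21, Aldoc, an aldolase, at 1.41, and Gpi1 at 0.89 (edgeR adjusted p = 0.00887, 0.0189 and 0.0158). Their summed level was 2078 to 2888 CPM on the VGAT E16 plates and 3297 to 3784 CPM on the VGAT P0 plates, replicate 1 included. None of 16 genes of the citric acid cycle and pyruvate dehydrogenase passed, with a median of 0.08. Of 46 assembly factors, Ndufaf4, which helps to build complex I, fell by 0.47 (edgeR adjusted p = 0.0485) and none rose, and the median was 0.04. None of 13 regulators of mitochondrial biogenesis passed, with a median of -0.06. Of the 13, 5 were positive and 8 negative, among them Ppargc1b at 0.58, its fellow coactivator Ppargc1a at -0.28 and Nrf1 at -0.08.

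Ribosomal protein lists also had positive medians. Of 80 cytosolic ribosomal protein genes 5 rose and 0 fell, with a median of 0.46, and of 76 mitochondrial ribosomal protein genes 1 rose and 0 fell, with a median of 0.21. Among all genes tested 2.84% rose and 1.74% fell. The summed cytosolic list was at 5645 to 6412 CPM on the VGAT E16 plates and 6866, 9673 and 7468 CPM on the VGAT P0 plates, highest on replicate 2. Of the 9 other OXPHOS genes tested that the symbols miss, among them Cyc1, Cox4i1 and Ndufab1, none passed and all 9 were positive, with a median of 0.30. Between sorts, 2 of 16 glycolysis genes tested fell, Eno2 and Aldoc, against 4.2% of all genes, and no gene passed in these other lists.

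**Figure D5:**
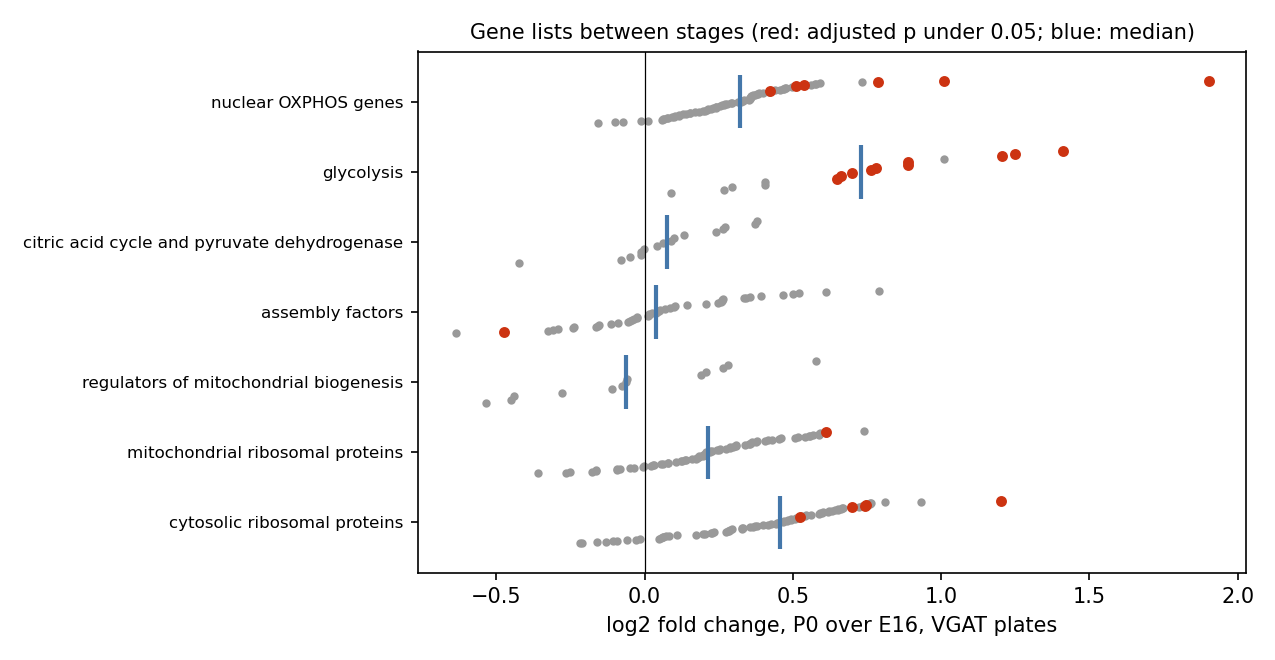
Log2 fold changes between P0 and E16 on the VGAT plates for the nuclear OXPHOS genes and 6 other gene lists; each point is a gene, red points passed an adjusted p of 0.05 and blue bars are medians. The glycolysis list has the highest median, 0.73, and the nuclear OXPHOS genes lie at 0.32, below the cytosolic ribosomal proteins at 0.46.

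The members have short transcripts. The median length of the longest protein-coding transcript was 892 bases over the 76 tested, against 3349 bases over all genes tested with a length. Across all genes, values between stages were also higher for short transcripts: the 529 genes under 1000 bases had a median log2 fold change of 0.31 and the longer ones 0.01. For the 43 members under 1000 bases the median was 0.35, and for the longer members 0.24. Spearman's rho of length with the stage difference was -0.23 across members and -0.31 across all genes, as a description over genes, which are not independent replicates. The part of length in the stage difference was not tested.

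The mitochondrial genome encodes 13 subunits of the same complexes. Their mRNAs took 3.01%, 3.65%, 3.01% and 3.12% of counts on the VGAT E16 plates, 3.07%, 4.35% and 3.20% on the VGAT P0 plates and 3.402% and 3.33% on the VGAT+PITX3 plates. Only P0 replicate 2 stood clear of the E16 range. Nearly all of these counts fell on mt-Nd1, mt-Nd2, mt-Co1, mt-Nd4, mt-Nd5 and mt-Cytb. The other mitochondrial mRNAs, mt-Co2, mt-Co3 and mt-Atp6 among them, were listed at or near 0 on every plate and were not read as expression.

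Nearly all member counts were spliced, as reported by the separate spliced table. The spliced share was 94.7% to 95.7% over the 9 plates for the members and 70.0% to 79.9% for all genes. Among 75 members with at least 100 counts the median was 96.9%, and 3 were under 80%: Ndufa1 at 56.8%, Ndufs4 at 62.3% and the Atp5o entry that overlaps other genes, ENSMUSG00000116933, at 62.8%. On spliced counts alone 3 members of 75 rose between stages and none fell, against 3.75% of all genes called.

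Promoters were searched for letters bound by factors known to control respiratory genes, in the 300 bases from 250 before to 50 after the RefSeq start, on both strands. Of the 80 symbols 67 had an entry, 2 of them under another symbol, giving 72 promoters. The NRF1 letters, GCGC followed by AT and GCGC without a gap, were in 6.94% of them, against 0.971% of all 32851 promoters. The YY1 letters AAGATGGCG were in 9.72%, against 1.40%, the GABPA letters CCGGAAGT in 6.94%, against 3.89%, and the SP1 letters GGGGCGGGG in 16.7%, against 11.4%. The NRF1 windows are shown because Ndufa11, one of the 6 genes that rose, holds those letters. Capitals mark them, with 10 bases on each side, on the gene's strand (GRCm38.p6).
Ndufa11, chr17:56717692-56717721, plus strand: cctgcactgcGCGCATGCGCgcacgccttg
Atp5g2, chr15:102671070-102671099, minus strand: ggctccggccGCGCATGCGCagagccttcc
Atp5k, chr5:108434430-108434459, minus strand: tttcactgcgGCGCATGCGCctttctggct
Cox6a1, chr5:115349101-115349130, minus strand: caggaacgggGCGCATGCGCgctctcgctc
Uqcrc1, chr9:108936668-108936697, plus strand: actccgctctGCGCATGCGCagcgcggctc

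Of the other genes that rose, Atp5h holds the GABPA letters, on the opposite strand, 39 bases before its start, and Cox6b2 the SP1 letters shown above. The YY1 letters include ATGG, and in 6 of the 7 promoters that hold them this ATG is the annotated start codon of the gene, as in Ndufs7 and Ndufs4, shown with the YY1 letters in capitals.
Ndufs7, chr10:80249463-80249491, plus strand: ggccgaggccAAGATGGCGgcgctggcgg
Ndufs4, chr13:114388045-114388069, minus strand: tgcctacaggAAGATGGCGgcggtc
For the genes with NRF1 letters the log2 fold change between stages was 0.42 for Ndufa11, 0.35 for Atp5k, 0.36 for Atp5g2, 0.24 for Uqcrc1 and 0.22 for Cox6a1, and only Ndufa11 passed the threshold.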

How the data were processed

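The deposited tables hold estimated counts per gene and well (SORT-seq, CEL-seq2), made by the authors from unique molecular identifiers with a collision correction, so values need not be whole. Reads were mapped with STAR to mm10, per the submitters' processing notes. Tables of all and of spliced counts were used, and those of unspliced counts were not used here. Wells passing the limits in the report were summed per plate and rounded. Sums were tested with edgeR 4.0.16 (R 4.3.3): TMM, filterByExpr, quasi-likelihood F test, Benjamini-Hochberg over all genes. DESeq2 1.42.0 was an alternative. Stage used 7 VGAT plates, sort and its interaction with stage all 9. CPM levels used 9-plate TMM factors. On simulated counts, the stage test called 79% of 100 genes changed by 1 on the log2 scale. Coordinates and lengths come from GENCODE M21. The members and lists were chosen with earlier results of these data known. Named genes were every called member, otherwise the 5 with the smallest p, fixed paralog sets and core subunits, and the highest and lowest member of each complex. Cox8b, in the fixed sets, was not analysed here.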

Additional observations from a re-analysis of the deposited data

Results flagged for a closer look

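Of 33 values tested, 2 lay far from the other plates of their group, both on VGAT E16 replicate 2. Cox7a2, a complex IV subunit, was at 77.8 CPM there and at 121 to 126 CPM on the other 3 plates, and the gap was 0.905 of the whole range. The share of counts from the 81 genes was 0.971% there and 1.02% to 1.03% on the others, a gap of 0.850 of the range. Both gaps exceed Dixon's 95% critical value for 4 plates, which chance passes in about 5% of groups. This plate also carried microglia markers at 29.0 CPM in sum, and their part in the low values was not tested.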

How the results depend on the processing

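The stage labels matter most. With stage from the plate codes the count of members called went from 6 to 0, and calls over all genes went from 624 to 1. The members' median log2 fold change went from 0.32 to 0.13, and Cox6b2 and Ndufs8 changed sign, to -0.37 and -0.043. Without the 4 plates with differing codes, an alternative chosen after seeing the data, 23 members passed between stages with a median of 0.51, with VGAT P0 replicate 2 as the only P0 plate, and 1 passed between sorts, against 9.09% of all genes. DESeq2 called 11 members between stages, against 6.92% of all genes, and spliced counts gave 3, against 3.75%. Leaving out single plates gave 2 to 14 members called and medians of 0.19 to 0.39 between stages, 0 to 1 called between sorts (1 without VGAT P0 replicate 1, against 8.64% of all genes) and 0 for the interaction. Spliced counts gave member shares of 1.33% at E16 and 1.47% at P0, and keeping mitochondrial genes in the total gave 0.959% at E16. With the replicate block 3 members passed between stages, against 1.54% of all genes, and calls over all genes went from 624 to 210. Deviations of same-numbered plates correlated at 0.038, 0.064 and 0.044, too weakly to treat the numbers as pairs, and VGAT E16 replicate 1 correlated best with P0 replicate 3. The block moved the sort median from -0.16 to -0.05 and the members with a positive sort value from 13 to 32 of 76, against 50.6% of all genes. For the single members followed, 542 comparisons with an alternative other than leaving out a plate kept their direction and side of the threshold, 21 lost and 5 gained a call, and 37 changed sign. Leaving out a plate kept 396, lost 22 and gained 5 calls, and 18 changed sign. Other than Cox6b2 and Ndufs8, those that changed sign had passed in neither fit. Stage values that turned, on the log2 scale, were with the plate codes Atp5a1 at -0.10, Atp5b at -0.30, Ndufs1 at 0.097, Ndufs7 at -0.12, Ndufv1 at -0.081, Ndufv2 at -0.092, Sdhb at -0.13, Sdhc at -0.32, Uqcrc1 at -0.21 and Uqcrfs1 at -0.058. Without the 4 plates they were Atp5a1 at -0.055, Atp5b at -0.23, Ndufv2 at -0.043, Sdhc at -0.29 and Uqcrfs1 at -0.018. On thinned wells they were Ndufs1 at 0.021, Ndufv1 at -0.042 and Uqcrfs1 at -0.039. With no filter they were Atp5a1 at -0.016, Cox5a at -0.019 and Uqcrfs1 at -0.00295, and on spliced counts Atp5a1 at -0.051 and Cox5a at -0.0033. Sort values that turned were, with the block, Cox5a at 0.00039, Cox6b1 at 0.074, Cox8a at 0.096, Ndufs1 at 0.10, Sdha at 0.012 and Sdhb at -0.042, and the stage value of Atp5a1 was then -0.0039. On thinned wells Ndufv1 was at -0.16 and Sdhc at 0.012 between sorts, and without the 4 plates Ndufv1 at -0.0071, Sdha at 0.023 and Uqcrc1 at -0.025. With single plates left out, stage values ran from -0.044 to 0.12 for Atp5a1, -0.0010 to 0.25 for Atp5b, -0.044 to 0.20 for Cox5a, -0.032 to 0.17 for Ndufv2 and -0.0042 to 0.13 for Uqcrfs1. Sort values ran from -0.29 to 0.11 for Atp5a1, -0.64 to 0.079 for Atp5g1, -0.35 to 0.045 for Ndufs7, -0.24 to 0.25 for Ndufv1, -0.39 to 0.085 for Ndufv2, -0.25 to 0.072 for Sdha, -0.065 to 0.12 for Sdhb, -0.34 to 0.042 for Sdhc, -0.33 to 0.30 for Uqcrc1 and -0.15 to 0.18 for Uqcrfs1. Depth limits the low genes: 3 counts correspond to 0.561 to 2.02 CPM by plate.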
